A study of Mus musculus with 10 samples.

Results

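The STAT genes Stat2, Stat3, Stat4, Stat5a, Stat5b and Stat6 encode transcription factors that carry cytokine signals to the nucleus. They were taken by gene name and are 6 of the 57010 genes of the deposited table. RNA was sequenced in bulk from splenic CD8+ T cells of 5 mice, each giving 1 library from cells kept for 24 h with anti-CD3/CD28 beads (activated) and 1 from cells kept equally long without them (rested), or 10 libraries in all. In 3 mice (Dusp2fl/fl-E8I-cre+/-, called cKO), Cre under the E8I element, an enhancer of the Cd8 locus active in mature CD8+ T cells, deletes the floxed phosphatase gene Dusp2. The other 2, the controls (Dusp2fl/fl-E8I-cre-/-), carried the same floxed alleles without Cre, so that the presence of Cre and the loss of Dusp2 cannot be told apart. The sources used here do not give the ages of the mice. The title of the study concerns DUSP2, a chromatin remodelling complex and the effector programme of CD8+ T cells.

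Cytokine receptors hold JAK kinases on their cytoplasmic tails. When a cytokine binds, the JAKs phosphorylate STAT proteins, which pair up, enter the nucleus and bind DNA. In CD8+ T cells STAT5A and STAT5B answer to IL-2, IL-7 and IL-15 and are needed for survival and growth, STAT4 answers to IL-12, STAT3 to IL-6, IL-10 and IL-21, STAT6 to IL-4, and STAT2 works with IRF9 in the response to type I interferon. The libraries measure the RNA of these genes, not the phosphorylation that switches the proteins on.

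Libraries held 51203786 to 65135435 counts. Dusp2 itself stood at 51.8 ± 5.0 CPM in activated cKO and 295 ± 4.9 CPM in activated control cells, and at 26.0 ± 1.9 CPM in rested cKO and 92.6 ± 6.8 CPM in rested control cells (CPM are counts scaled to library size by TMM; SD, n = 3 cKO and n = 2 control mice), with an adjusted p of 1.18e-09 after activation and 8.1e-08 at rest by edgeR's quasi-likelihood test. For cKO mouse 3, the titles of its libraries go against their genotype or treatment fields and library names. Groups follow those fields and names, and the values without this mouse stand beside the results that rest on it. The summed level of 8 CD8 T cell markers was 2652 to 2886 CPM in activated cKO, 2715 to 2787 CPM in activated control, 3255 to 3435 CPM in rested cKO and 3277 to 3364 CPM in rested control libraries, and Cd4 did not exceed 1.22 CPM. Among markers of other cells, the defining genes Ncr1, Ms4a1 and Pax5 were at 0 in some libraries and at most at 0.104 CPM, and Siglech had no count. Others were detected, with Ighm at 223 to 354 CPM, Cd79b at 2.21 to 5.46 CPM, Klrk1 at 2.79 to 11.7 CPM and Cd68 at 8.63 to 15.6 CPM. The 12 myeloid and dendritic markers summed to 14.8 to 18.9 CPM in activated cKO, 15.6 to 16.5 CPM in activated control, 10.2 to 13.5 CPM in rested cKO and 12.7 to 13.3 CPM in rested control libraries. In bulk RNA, fewer cells of a type and less RNA per cell cannot be told apart.

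In the coordinates of the deposited table (mm39), Stat5b (ENSMUSG00000020919, chr11:100671557-100741550), Stat5a (ENSMUSG00000004043, chr11:100750177-100775995) and Stat3 (ENSMUSG00000004040, chr11:100775924-100830366) lie side by side. There are 8626 bases between Stat5b and Stat5a, and the Stat5a and Stat3 intervals overlap by 72 bases. Stat6 (ENSMUSG00000002147, chr10:127478855-127496826) and Stat2 (ENSMUSG00000040033, chr10:128106428-128128718) share chromosome 10, with 609601 bases between them, and Stat4 (ENSMUSG00000062939, chr1:52026307-52146348) is on chromosome 1. STAT5A and STAT5B are close paralogs, and 14.7% of the 50-base stretches of Stat5a transcripts, or 11.1% of those of Stat5b, occur in the other gene (GENCODE M21 transcripts). How the counting treated reads from these stretches and from the overlap with Stat3 was not stated.

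Start-site windows of the paralogs are shown because their RNA moved in opposite directions with activation, and that of Stat2 because it holds a motif of the interferon response. The sequences are from RefSeq for GRCm38.p6, a build other than that of the counts, run from 250 bases before to 50 bases after the start, and are written in the direction of transcription. The first is chr11:100859406-100859705 on the plus strand, the next chr11:100850532-100850831 on the minus strand and the last chr10:128270248-128270547 on the plus strand. Capitals mark the interferon-response core, which is TTTC, any 2 bases and TTTC.
Stat5a: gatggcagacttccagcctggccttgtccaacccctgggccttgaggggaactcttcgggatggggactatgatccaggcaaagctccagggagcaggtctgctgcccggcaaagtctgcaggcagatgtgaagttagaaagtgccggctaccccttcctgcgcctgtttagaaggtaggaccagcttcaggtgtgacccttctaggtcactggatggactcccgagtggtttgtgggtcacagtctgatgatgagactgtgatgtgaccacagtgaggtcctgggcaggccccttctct
Stat5b: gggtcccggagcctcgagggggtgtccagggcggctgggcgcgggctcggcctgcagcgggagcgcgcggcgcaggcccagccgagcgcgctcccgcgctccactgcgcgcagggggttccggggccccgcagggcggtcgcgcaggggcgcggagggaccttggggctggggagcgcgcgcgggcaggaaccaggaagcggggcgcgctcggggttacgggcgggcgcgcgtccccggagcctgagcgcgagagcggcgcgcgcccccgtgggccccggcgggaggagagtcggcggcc
Stat2: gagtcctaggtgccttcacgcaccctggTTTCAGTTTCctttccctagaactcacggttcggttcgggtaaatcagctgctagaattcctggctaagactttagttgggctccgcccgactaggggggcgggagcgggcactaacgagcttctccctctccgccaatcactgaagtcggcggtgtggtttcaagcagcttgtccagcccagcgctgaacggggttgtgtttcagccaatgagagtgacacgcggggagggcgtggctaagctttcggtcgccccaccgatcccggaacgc
The 6 genes had 9 windows in the table, with 2 each for Stat5a, Stat5b and Stat4. The printed Stat5b window was 82.7% G or C and the printed Stat5a window 57.7%, while the other Stat5b window was 47.3% and the other Stat5a window 67.7%, against a median of 52.7% over 32851 mouse windows. The paralogs thus kept no fixed order in base composition. Searched on both strands, none of the 9 held the STAT site TTCNNNGAA, the AP-1 site TGANTCA or the CRE TGACGTCA, which 8.3%, 7.81% and 1.79% of all windows held. The interferon-response core was in the Stat2 window and in 1 of the Stat4 windows, and in 3.44% of all windows. A match is letters in a window and not a bound site, and the lack of one says nothing of the factor.

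All 6 genes passed the filter on low counts, which 18966 genes passed. Compared per length, as FPKM (fragments scaled by gene length and library size), Stat6 was the highest in each of the 4 groups, with means of 81.1 ± 2.6 FPKM in activated cKO, 84.6 ± 2.4 FPKM in activated control, 72.4 ± 0.89 FPKM in rested cKO and 73.0 ± 2.9 FPKM in rested control cells. In rested cells Stat5b, Stat4, Stat3, Stat2 and Stat5a followed in this order. Neighbours in the order did not overlap between libraries, except Stat6 and Stat5b in rested control cells. Activated cells kept Stat6 on top, and Stat4, Stat5b and Stat3 next to it overlapped, with means between 31.2 and 34.6 FPKM. Stat5a came after them at 24.4 ± 2.1 FPKM in activated cKO and 21.6 ± 0.50 FPKM in activated control cells, and Stat2 was the lowest at 11.9 ± 0.32 FPKM and 12.3 ± 1.3 FPKM. Stat5a was thus last of the 6 at rest and Stat2 last after activation. FPKM divide by the gene lengths of the deposited table, which are 7133 bases for Stat5a and 5539 for Stat5b. The order, and the ratio and shares below, depend on these lengths.

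**Figure D1:**
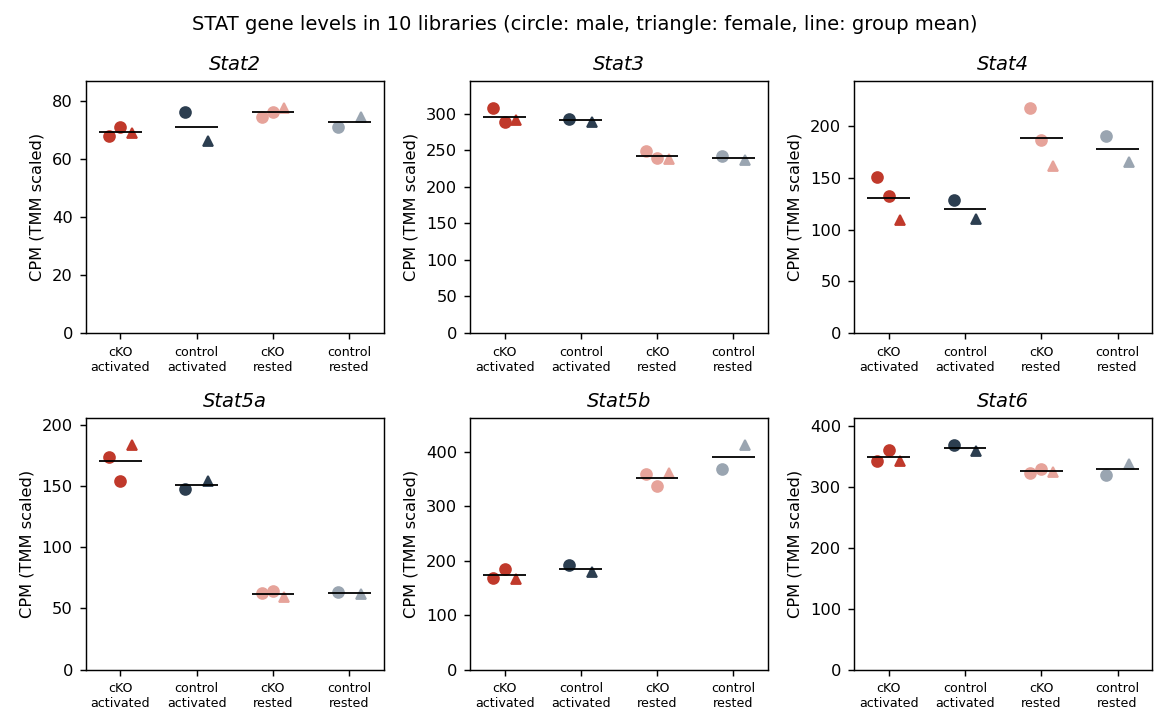
Level of each STAT gene in every library, in TMM-scaled CPM, with a point for each mouse and a bar for the group mean. Stat5a was at 148 to 184 CPM in the 5 activated libraries and at 59.2 to 64.2 CPM in the 5 rested ones, and Stat5b lay the other way round.

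After activation Stat5a and Stat3 RNA rose, that of Stat5b and Stat4 fell, and Stat6 and Stat2 did not pass the test, with the same calls in cKO and in control cells. Levels are relative to the other RNA of a library, so a rise or fall is not one in RNA per cell. With 2 of 6 members higher and 2 lower in each genotype, the shares are close to those of all genes tested, of which 31.5% were called higher and 31.9% lower in cKO cells and 28.5% and 27.6% in control cells. The median absolute log2 change over all genes was 0.58 in cKO and 0.56 in control cells, which Stat5a and Stat5b exceeded in both genotypes and Stat3, Stat6 and Stat2 did not. Calls here are by edgeR's quasi-likelihood test at a threshold of 0.05 after Benjamini-Hochberg adjustment across the tested genes. The summed level of 8 B cell markers, nearly all of it Ighm, was 232 to 282 CPM in activated cKO and 227 to 265 CPM in activated control libraries, against 290.5 to 361 CPM in rested cKO and 280 to 343 CPM in rested control libraries. That of 6 CD4 and Treg markers was 61.2 to 93.8 CPM and 68.9 to 74.6 CPM in activated cKO and control libraries, against 18.9 to 28.2 CPM and 19.4 to 20.3 CPM at rest. Most of the rise lay in Ctla4 and Zbtb7b. Mean Ctla4 was 41.2 and 45.1 CPM in activated cKO and control cells, against 6.66 and 6.86 CPM at rest. Mean Cd4 was 0.706 and 0.473 CPM, against 0.893 and 0.243 CPM at rest, and Foxp3 0.594 and 0.685 CPM, against 0.722 and 0.625 CPM. The part of the B cell and the CD4 and Treg markers in the activation changes was not tested.

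**Figure D2:**
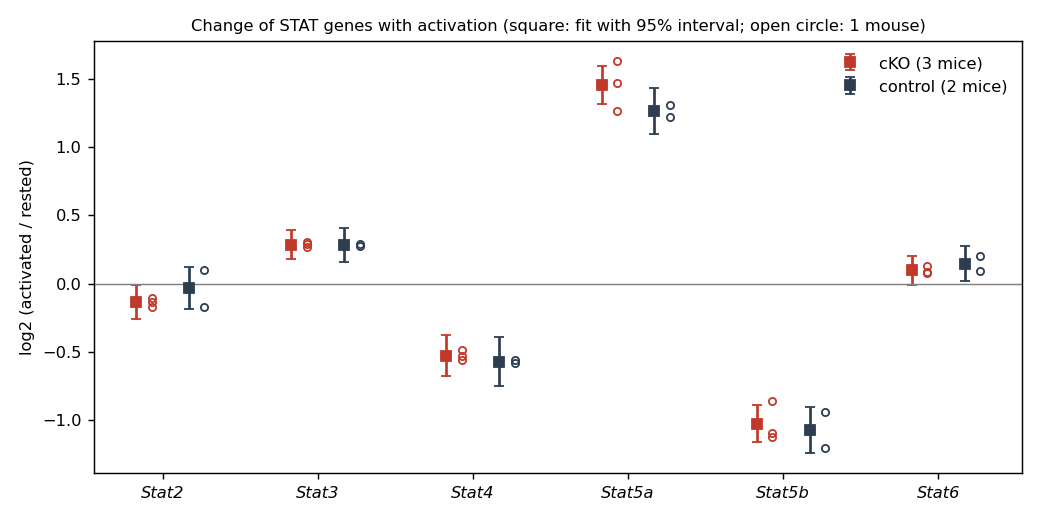
Activation change of each STAT gene, as log2 of activated over rested cells, in cKO and control mice, with small points for single mice and large symbols with bars for the fit and its 95% interval. The Stat5a change was 1.46 in cKO and 1.27 in control cells and the Stat5b change -1.03 and -1.08, on opposite sides of 0.

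Stat5a showed the largest change of the 6. Activated cKO mice 1, 2 and 3 had 173.6, 154.2 and 183.6 CPM, and the same mice had 62.4, 64.2 and 59.2 CPM at rest. Activated control mice 1 and 2 had 147.7 and 154.2 CPM, against 63.3 and 62.2 CPM at rest. No activated library overlapped a rested one. For this and the members below, the share of all genes whose states do not overlap was not counted. Stat5a RNA was 2.75-fold higher in activated than in rested cKO cells (log2 change 1.46, SE 0.07, adjusted p = 7.78e-10) and 2.41-fold higher in control cells (log2 change 1.27, SE 0.08, adjusted p = 3.34e-08). Without cKO mouse 3 the log2 change in cKO cells was 1.37.

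Stat5b, whose protein shares most of its sequence and its activating cytokines with STAT5A, moved the other way. Its levels were 167.8, 185.0 and 165.7 CPM in activated cKO mice 1, 2 and 3, against 358, 337 and 361 CPM in the same mice at rest. In control mice 1 and 2 they were 191.6 and 178.7 CPM after activation, against 368 and 413 CPM at rest. Every mouse was lower after activation, and the states did not overlap. Stat5b RNA was 2.04-fold lower in activated cKO cells (log2 change -1.03, SE 0.06, adjusted p = 1.32e-08) and 2.11-fold lower in activated control cells (log2 change -1.08, SE 0.08, adjusted p = 1.21e-07), and the log2 change in cKO cells was -0.98 without cKO mouse 3. Per length, Stat5a stood at 0.770 ± 0.110 of Stat5b in activated cKO and 0.634 ± 0.050 in activated control cells, and at 0.137 ± 0.010 in rested cKO and 0.125 ± 0.012 in rested control cells (SD of the ratio, n = 3 and n = 2). In cKO mice 1 and 2 alone the ratio was 0.803 and 0.647 after activation and 0.135 and 0.148 at rest. In CPM, which leave out gene length, mean Stat5a and Stat5b were 170 and 173 in activated cKO cells. They were 151 and 185 CPM in activated control cells. The sum of the paralogs was 56.4 ± 0.44 FPKM in activated cKO and 55.8 ± 1.4 FPKM in activated control cells, against 70.6 ± 2.2 FPKM in rested cKO and 77.4 ± 5.8 FPKM in rested control cells.

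Stat4, which carries the IL-12 signal that favours interferon gamma production, fell. Activated cKO mice 1, 2 and 3 had 150.5, 132.7 and 109.3 CPM, against 217.6, 186.2 and 161.6 CPM at rest. In control mice 1 and 2 the levels were 128.9 and 110.1 CPM after activation, against 190.2 and 165.0 CPM at rest. The states did not overlap, and within each genotype the mice kept the same order in both states. The log2 change was -0.53 in cKO cells (SE 0.07, adjusted p = 1.32e-05), or -0.51 without cKO mouse 3, and -0.57 in control cells (SE 0.08, adjusted p = 5.78e-05).

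Stat3 rose by less than the median gene moved. Its levels were 308, 288 and 291 CPM in activated cKO mice 1, 2 and 3, against 249, 239 and 238 CPM at rest. Control mice 1 and 2 had 293 and 289 CPM after activation, against 242 and 236 CPM at rest. Replicates lay close together, with no overlap between the states. The log2 change was 0.29 in cKO cells (SE 0.05, adjusted p = 0.000135), the same without cKO mouse 3, and 0.28 in control cells (SE 0.06, adjusted p = 0.000991).

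Stat6, the IL-4 responsive member, had no call. Its levels were 344, 361 and 343 CPM in activated cKO mice 1, 2 and 3, against 324, 330.4 and 324 CPM at rest, and 369.6 and 359 CPM in activated control mice 1 and 2, against 321 and 337 CPM at rest. Activated libraries lay above the rested ones in each genotype by a narrow margin. The log2 difference was 0.10 in cKO cells (SE 0.05, adjusted p = 0.0934), or 0.11 without cKO mouse 3, and 0.15 in control cells (SE 0.06, adjusted p = 0.0504). It passed the threshold in both genotypes with DESeq2 size factors (adjusted p = 0.0467 in cKO and 0.0378 in control cells), with DESeq2's Wald test (0.0432 and 0.0318) and with limma on log2(FPKM + 0.5) (0.0157 and 0.0141).

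Stat2, the interferon-responsive member, had no call either. Activated cKO mice 1, 2 and 3 had 67.7, 71.0 and 68.7 CPM, against 74.4, 76.2 and 77.4 CPM at rest, and activated control mice 1 and 2 had 76.0 and 66.2 CPM, against 70.9 and 74.4 CPM at rest. The states were apart in cKO libraries and overlapped in control libraries. The log2 difference was -0.14 in cKO cells (SE 0.06, adjusted p = 0.0557), or -0.12 without cKO mouse 3, and -0.03 in control cells (SE 0.07, adjusted p = 0.721). In control cells its direction rested on the mouse, at -0.17 without control mouse 1 and 0.11 without control mouse 2.

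Of the summed FPKM of the 6 genes, Stat5a made up 11.4 ± 1.2% in activated cKO and 10.1 ± 0.67% in activated control cells, against 3.72 ± 0.15% in rested cKO and 3.71 ± 0.10% in rested control cells. Stat5b made up 14.8 ± 0.79% and 15.9 ± 0.21% after activation in cKO and control cells, against 27.3 ± 1.3% and 29.7 ± 2.0% at rest. The total of the 6 was 216 ± 6.8 FPKM in activated cKO and 215 ± 9.4 FPKM in activated control cells, against 228 ± 6.4 FPKM in rested cKO and 232 ± 4.4 FPKM in rested control cells.

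**Figure D3:**
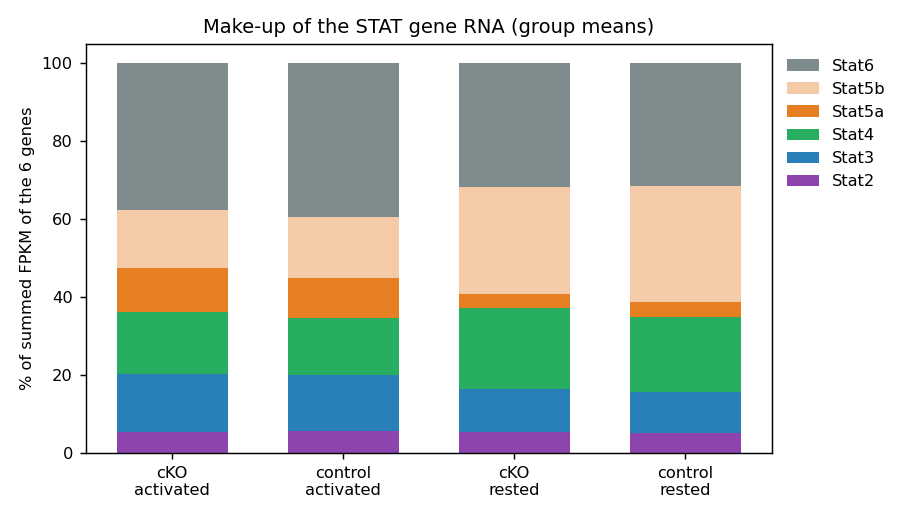
Share of each STAT gene in the summed FPKM of the 6 genes, in percent, as group means of 3 cKO or 2 control libraries. The Stat5b share was 14.8% and 15.9% in activated and 27.3% and 29.7% in rested cKO and control cells.

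Loss of Dusp2 was set against the floxed controls in each state. None of the 6 STAT genes passed the test in activated or in rested cells. Over all genes 8 of 18966, or 0.0422%, were called in each state, so 0 of 6 members is close to the share of all genes. At an unadjusted p below 0.05, edgeR's test held 1 member in activated cells and 0 in rested cells, against 6.02% and 4.13% of all genes. The counts of members with an adjusted p below 0.05 were 0 by DESeq2's Wald test and by limma as well. The 95% intervals of the 12 differences lay between -0.30 and 0.33 on the log2 scale, so differences larger than these bounds lay outside every interval.

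The member with the low unadjusted p was Stat5a in activated cells. Its levels, given above, were 154.2 to 183.6 CPM in activated cKO mice and 147.7 and 154.2 CPM in activated control mice, so that the lowest cKO library and the highest control library were level. The log2 difference was 0.18 (95% interval 0.03 to 0.33, unadjusted p = 0.0257, adjusted p = 0.806 by edgeR), and 0.13 without cKO mouse 3. In rested cells the Stat5a difference was -0.01 (95% interval -0.17 to 0.14, adjusted p = 1).

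Stat5b stood at 337 to 361 CPM in rested cKO cells, against 368 and 413 CPM in rested control cells, without overlap between the libraries. Its log2 difference of -0.15 (95% interval -0.30 to 0.01, adjusted p = 1 by edgeR) was not called, and was -0.26 without control mouse 1, -0.06 without control mouse 2 and -0.15 without cKO mouse 3. In activated cells it was -0.10 (95% interval -0.25 to 0.06, adjusted p = 0.852), and between -0.15 and -0.05 when each mouse was left out. Stat4 differed by 0.08 (95% interval -0.09 to 0.24) in activated and 0.03 (95% interval -0.13 to 0.20) in rested cells, and leaving out each mouse gave 0.01 to 0.14 and -0.07 to 0.09. For Stat3, Stat6 and Stat2 the estimates lay between -0.06 and 0.06 in both states, and between -0.14 and 0.09 when a mouse was left out. Rested Stat2 was at 74.4 to 77.4 CPM in cKO and 70.9 and 74.4 CPM in control cells, opposite in direction to Stat5b, with the nearest libraries level. The share of all genes whose libraries do not overlap between genotypes was not counted.

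**Figure D4:**
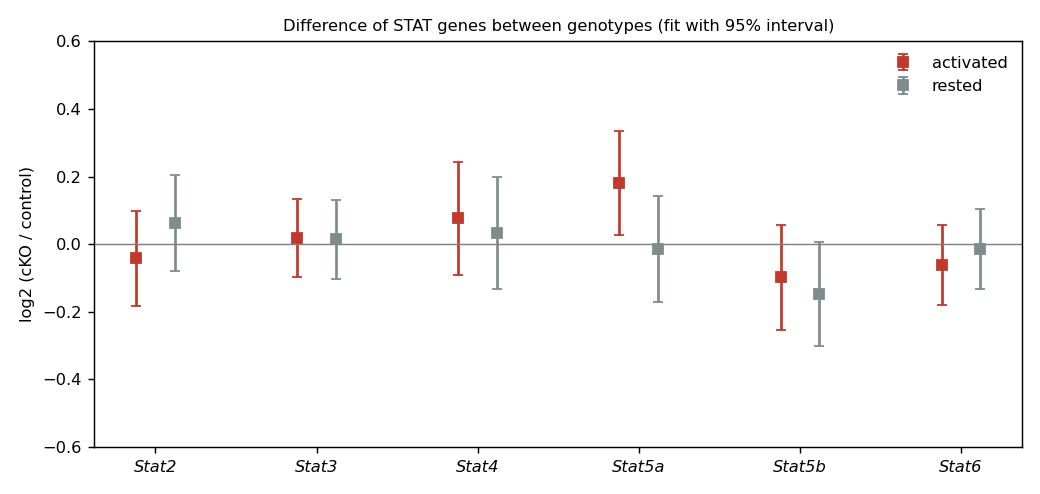
Genotype difference of each STAT gene, as log2 of cKO over control cells, in activated and rested cells, with the fit as a square and its 95% interval as a bar. The interval for Stat5a in activated cells, 0.03 to 0.33, was the one that did not include 0, and its adjusted p was 0.806.

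Whether the activation change itself differed between genotypes was tested as an interaction. No gene of the 18966 was called by edgeR's quasi-likelihood test (0%), 519 had an unadjusted p below 0.05, and DESeq2's Wald test called 3. No STAT gene was among the calls of either. The Stat5a interaction was 0.19 (95% interval -0.02 to 0.41, adjusted p = 1), with 0.11 without cKO mouse 3 and 0.30 without cKO mouse 2. The others lay between -0.10 and 0.05, and without control mouse 1 Stat5b reached 0.21 and Stat5a 0.18.

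Sex was a term of the fit, and the look at it was added after the values were seen. Male are cKO mice 1 and 2 and control mouse 1, and female are cKO mouse 3 and control mouse 2. Sex coincides with the number that opens the mouse names, so that the 2 cannot be told apart. Of the 6 members Stat4 was called, against 4.07% of all genes. It stood at 128.9 to 150.5 CPM in 3 activated male libraries and 109.3 and 110.1 CPM in 2 activated female ones, and at 186.2 to 217.6 CPM in rested males and 161.6 and 165.0 CPM in rested females. In both states every male library lay above every female one, whatever the genotype. The log2 difference was 0.29 (SE 0.06, adjusted p = 0.0102 by edgeR), and the call ended with limma on log2(FPKM + 0.5) (adjusted p = 0.0752), without cKO mouse 3 (0.407) and without control mouse 2 (0.0556). The fit counted the 2 libraries of a mouse as independent, while Stat4 kept its order of mice within each genotype in both states. The p-value for sex thus treats 10 libraries of 5 mice as if all were separate animals. The log2 differences of the other members lay between -0.03 and 0.03.

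The summed level of the 18 NK and innate-like markers, most of it from Il2rb and Klrd1, which CD8+ T cells also express, split by sex at rest as Stat4 did. It was 720.1, 626.0 and 626.6 CPM in the rested libraries of cKO mouse 1, cKO mouse 2 and control mouse 1, and 526.6 and 512.1 CPM in those of cKO mouse 3 and control mouse 2. After activation it was 733, 684 and 629 CPM in the males and 676 and 552 CPM in the females, which overlap. Of the 17 tested, 5 were called higher and 1 lower in males, with a median log2 difference of 0.60, against 0.00 over all genes. Without cKO mouse 3, 2 were called higher and 0 lower, with a median of 0.81. Their part in the Stat4 difference was not tested.

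To describe which genes had the most similar profile, log2 CPM was correlated across the 10 libraries between each STAT gene and 9500 other named genes. These averaged 5 CPM or more, and names of Gm and digits or ending in Rik were left out. The coefficients are a description, since the libraries fall into 2 states and those of a mouse are not independent. Nearest to Stat5a were Osgin2, Akt2, which encodes an AKT kinase, and Rangap1, which acts in nuclear transport, with Pearson's r of 1.00 each. Nearest to Stat5b were Pdk1, which encodes a pyruvate dehydrogenase kinase, Asap1 and Arhgef1, with 1.00 each. Stat4 was followed most closely by Arhgap26 (0.99), Il18r1 (0.99), a chain of the IL-18 receptor, and Tmem268 (0.98), and Stat3 by Myo5a, Gbp5 and Riok1, at 0.99 each. Stat6 had Pon2 (0.97), Irf9 (0.95) and Ears2 (0.94), and Stat2 had Parp12 (0.88), Adck5 (0.87) and Cybc1 (0.87), the weakest of the 6.

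The genes around the STATs were taken as lists by role, with up to 4 named per list by the smallest p for activation in control cells. The genes were read against the same shares of all genes as above. Among the receptors, 21 of 23 listed chains were tested, and 7 rose and 10 fell in cKO cells, 8 and 10 in control cells, with a median log2 change of -0.52 and -0.42. Il2ra, the high-affinity chain of the IL-2 receptor, reached 419 ± 48.8 CPM in activated cKO cells, against 2.04 ± 0.66 CPM at rest, and 387 ± 44.7 CPM in activated control cells, against 1.27 ± 0.46 CPM at rest. Il21r, the IL-21 receptor chain, rose by 0.75 in cKO and 0.71 in control cells on the log2 scale. The IL-6 receptor gene Il6ra fell by 1.89 and by 1.77, and the IL-10 receptor gene Il10ra fell by 1.63 and by 1.58. All 3 of these last chains belong to receptors that signal through STAT3, so chains that use the same STAT moved in opposite directions.

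All 4 JAK kinase genes were tested. Jak1, a kinase used by most of these receptors, was at 874 ± 76.1 CPM in activated cKO and 923 ± 67.0 CPM in activated control cells, against 1969 ± 34.5 CPM in rested cKO and 1918 ± 56.6 CPM in rested control cells (log2 change -1.17, adjusted p = 2.17e-09, and -1.06, adjusted p = 7.05e-08, by edgeR). Tyk2, used by the IL-12 and interferon receptors, rose by 0.39 in cKO and 0.38 in control cells, and Jak2 by 0.39 and 0.27. Jak3, the partner of the common gamma chain, fell by 0.18 in cKO cells (adjusted p = 0.00553) and differed by 0.04 in control cells (adjusted p = 0.564). The interaction that would compare these changes called no gene.

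Of 18 negative regulators 10 rose and 5 fell in cKO cells, and 8 rose and 5 fell in control cells, with a median log2 change of 0.21 and 0.23. Cish, a SOCS-family inhibitor of the IL-2 receptor pathway, stood at 61.3 ± 9.1 CPM in activated cKO and 51.1 ± 7.4 CPM in activated control cells, against 3.10 ± 0.29 CPM in rested cKO and 2.92 ± 0.97 CPM in rested control cells. The phosphatase genes Ptpn6 and Ptpn2 rose by 1.58 and 0.87 in cKO cells and by 1.60 and 0.98 in control cells, and the adaptor gene Sh2b3 rose by 0.82 and 0.86. Socs3, the inhibitor of gp130 signals, fell by 1.06 in cKO and by 1.05 in control cells.

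Known targets of the STATs were counted the same way. Of 16 STAT5 targets 12 rose and 3 fell in cKO cells and 10 rose and 3 fell in control cells, with a median log2 change of 1.20 and 0.91, against -0.01 and 0.00 over all genes. Lta, which encodes lymphotoxin alpha, rose by 3.68 and 3.67 on the log2 scale in cKO and control cells, and the survival kinase gene Pim2 by 2.14 and 2.09. Some genes, among them Cish, Il2ra, Il4ra and Socs3, belong to more than 1 list, so the counts of the lists are not independent. Of 12 STAT3 targets 8 rose and 3 fell in each genotype. Among them the repressor gene Bcl6 rose by 1.71 and 1.93 in cKO and control cells, and Hif1a, which encodes a subunit of the hypoxia-inducible factor, by 1.15 and 1.14.

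Of 9 STAT4 targets 5 rose in each genotype and 2 fell in cKO and 1 in control cells. Ifng was at 9.12 ± 3.3 CPM in activated cKO and 6.0 ± 0.50 CPM in activated control cells, against 0.284 ± 0.057 CPM in rested cKO and 0.184 ± 0.041 CPM in rested control cells, while Il18r1 fell by 1.31 and by 1.35 and the kinase gene Map3k8 rose by 1.16 and 1.41. Of 23 STAT2 targets, interferon-stimulated genes, 9 rose and 6 fell in cKO cells and 7 rose and 5 fell in control cells. Bst2, Isg20 and Isg15 rose by 1.18, 1.21 and 1.69 in cKO and by 1.03, 1.42 and 1.63 in control cells, and Irf9, the DNA-binding partner of STAT2, by 0.59 and 0.66.

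Of the 6 tested STAT6 targets 4 rose and 2 fell in cKO cells and 3 rose and 2 fell in control cells. The repressor gene Gfi1 rose by 3.29 and 3.38 and the chemokine receptor gene Ccr4 by 4.11 and 4.51, while Il4ra, the receptor chain through which IL-4 acts, fell by 0.59 and by 0.51. Ccr8 reached 1.62 ± 1.0 CPM in activated cKO and 1.1 ± 0.33 CPM in activated control cells and was at or near 0 in rested cells. Without cKO mouse 3 the number of STAT4 targets that fell in cKO cells was 1, and that of STAT2 targets was 4. The number that rose in cKO cells was then 11 for STAT5 targets, 3 for STAT6 targets and 9 for negative regulators. Of 20 receptor chains tested without this mouse, 8 rose and 9 fell in cKO cells.

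**Figure D5:**
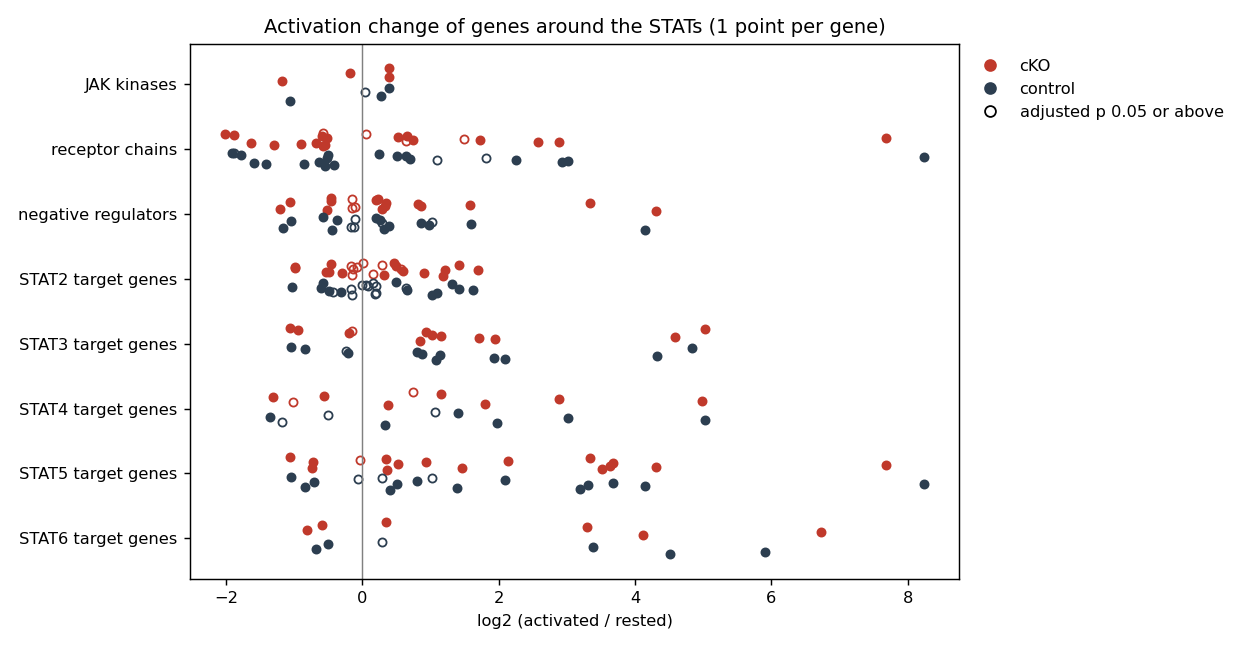
Activation change of each gene of 8 lists around the STATs, as log2 of activated over rested cells, with 1 point for each gene, cKO above control in each row and open points for an adjusted p of 0.05 or above. Receptor chains and negative regulators lie on both sides of 0, and Il2ra is the point farthest to the right, at 7.68 in cKO and 8.25 in control cells.

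By genotype, no gene of these 8 lists was called by edgeR in activated or in rested cells, or in the interaction. Of the 16 STAT5 targets 15 had a positive log2 difference in activated cKO against control cells, with a median of 0.14, against 50.7% of genes positive and a median of 0.00 over all genes. None of the 16 passed the test. The STAT4 targets leaned the same way, with 8 of 9 positive and a median of 0.12. Without cKO mouse 3 the medians were 0.11 for STAT5 and 0.24 for STAT4 targets. At rest 10 of 16 STAT5 targets (median 0.06) and 7 of 9 STAT4 targets (median 0.29) were positive, against 51.3% of all genes. Of the NK and innate-like markers 14 of 17 were positive in activated cells, with a median of 0.39 and no call. Their summed level was 676 to 733 CPM in activated cKO and 552 and 629 CPM in activated control libraries. The part of these markers in the STAT4 and STAT5 target values was not tested.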

How the data were processed

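Bulk RNA was measured in 10 libraries of splenic CD8+ T cells from 5 mice. Per the labels, a stranded mRNA kit turned the total RNA into libraries. The submitters' processing notes name Subread, FastQC and MultiQC and the build mm39. Aligner settings, annotation release and strand setting were not given in the sources used here. The counts, deposited unnormalized, are whole numbers. The deposited FPKM values equal counts scaled by length and column total, within a relative deviation of 9.4e-07. They were used to compare levels between genes, for the ratio, sums and shares of the STAT genes, and as an alternative. They carry no TMM scaling, whose factors were 1.02 to 1.03 in activated and 0.97 to 0.98 in rested libraries. Sums of FPKM thus differ between states otherwise than TMM-scaled values would.

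The tests used edgeR 4.0.16 in R 4.3.3, with TMM scaling, filterByExpr by group and a robust quasi-likelihood fit of 4 groups plus sex over all 10 libraries, so that groups share an estimate of the spread. P-values were adjusted by Benjamini-Hochberg over 18966 genes. The fit was also run on simulated counts, which held no mouse or sex effect and so could not test how it treats these. Within a group each library is a separate animal, but the p-values rest on a spread pooled over the 4 groups and moderated across genes. The fit has no mouse block, so the sex test, which draws on both states, counts the 2 libraries of a mouse as independent. No replicate libraries agreed within sampling noise. Alternatives used limma 3.58.1 and DESeq2 1.42.0. Motifs were searched and figures drawn in Python 3.11.15. Genotype, treatment and sex follow the characteristics, which the titles of the libraries of cKO mouse 3 contradict.

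The 2 libraries of a mouse are paired because they come from the same animal. Deviations of paired libraries from their groups' means had correlations of 0.22, 0.13 and 0.29 in cKO mice 1, 2 and 3 and of 0.32 in both control mice, which mirror each other about their mean. The paired alternative is a mouse block in limma, in which the consensus correlation of the 2 libraries of a mouse, with groups and sex fitted, was -0.135. Other alternatives were DESeq2 size factors, no low-count filter, no sex term, only the groups compared, and leaving out each mouse, which takes the spread of a lone control mouse from the other groups.

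The members and gene lists were chosen with earlier results of these data known. Named are all 6 members, up to 4 tested genes per list by smallest p for activation in control cells, 3 genes per member by Pearson correlation, Dusp2, and markers. Genes of a list named outside this rule (the sex and marker values) were chosen after their values were seen. A gene that the rule names is not reported here.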

Additional observations from a re-analysis of the deposited data

How the results depend on the processing

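The 4 activation calls in each genotype held under all alternatives run, with 4 or 5 members called (5 where Stat6 passed), and the genotype and interaction counts stayed at 0. With a replicate block for the mouse, the counts were 4 and 4 for activation, 0 for each genotype comparison and the interaction, and 1 for sex. That block used 1 consensus correlation for all genes, -0.135. A negative value does not widen the error of a comparison between mice, so the blocked fit cannot decide whether the sex call holds. The count for sex was 0 with limma on log2(FPKM + 0.5), and 0 to 1 when each mouse was left out. The cause was not tested. Counts over all genes moved more. Against 8 in each state, genotype calls numbered 211 in activated and 204 in rested cells with no low-count filter, 19 and 29 with DESeq2's Wald test, 4 and 5 with limma, and 49 and 25 without cKO mouse 2. They were 5 in activated cells with only the groups compared and 15 in rested cells without control mouse 1. The interaction called 39 genes with no filter, 3 by DESeq2 and 3 without cKO mouse 3. Activation in control cells called 6981 genes without control mouse 2, against 10631. The sex term called 1911 genes with no filter, 1441 with the replicate block, 1275 with DESeq2, 253 with limma and 169 to 368 without cKO mouse 1, cKO mouse 3, control mouse 1 or control mouse 2, against 771. Scaling moved the median of all genes by less than 0.1 (log2) in each comparison. With 2 control mice, small genotype differences could not be detected.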
